A study of Mus musculus with 6 samples.

Results

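The B cell receptor and identity genes described here were Cd79a, Cd79b, Ms4a1, Pax5, Ebf1, Cd22, Fcer2a, Cr2 and Blk. They were taken by name, not by a measured value, and were 9 of the 28773 gene identifiers listed in every sample. The sequenced RNA came from CD8+ T cells that a kit isolated from mouse spleens on day 35, in 2 groups of 3 samples that carried replicate numbers 1 to 3 and 4 to 6. Mice of both groups had received microwave ablation (MWA) of a transplanted tumour, followed by the vehicle PBS in MWA+PBS or by 2-deoxy-D-glucose (2DG), an inhibitor of glycolysis that resembles glucose, in MWA+2DG. The comparison asked how the transcripts of the isolated cells differed when glycolysis had been inhibited after ablation. In the paper's schedule the 2DG injections ended some days before day 35, so the cells were taken after the treatment. The sample labels gave no strain, age, isolation batch or animal, so p-values measured only the spread between these samples, which may be technical, and treatment and any batch shared by a whole group cannot be told apart.

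The B cell receptor is a membrane immunoglobulin held together with the signalling heterodimer of Cd79a and Cd79b, whose cytoplasmic tails are phosphorylated by Src family kinases such as Blk when antigen binds. Co-receptors raise or lower the threshold of this signal, among them the complement receptor Cr2, which acts with Cd81, and the inhibitory lectin Cd22. Pax5 and Ebf1 are transcription factors that commit precursors to the B lineage, whereas Ms4a1 (CD20) and Fcer2a (CD23) are surface proteins of mature B cells. T cells do not use this receptor, and most of these genes serve as markers of B cells in a spleen preparation.

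Promoters were available for 6 of the 9 members. The 250 bases before the transcription start of Cd79a, Cd22 and Cr2 are shown because each of these genes has a single start in the RefSeq table, the bases just after it were found in a GENCODE transcript of the gene, and all 3 were higher in MWA+2DG. Pax5 also has a single start, but the bases after it were not found in a GENCODE transcript of Pax5, and Ebf1 and Fcer2a have several starts. The sequences are from RefSeq on GRCm38.p6, at chr7:24897247-24897496 on the + strand for Cd79a, chr7:30879029-30879278 on the - strand for Cd22 and chr1:195176720-195176969 on the - strand for Cr2. Capitals mark a match to a motif.
Cd79a: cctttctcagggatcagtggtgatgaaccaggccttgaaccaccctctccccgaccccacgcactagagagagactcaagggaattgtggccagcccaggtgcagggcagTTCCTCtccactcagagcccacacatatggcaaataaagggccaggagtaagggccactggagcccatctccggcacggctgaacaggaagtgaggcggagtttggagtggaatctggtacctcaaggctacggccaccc
Cd22: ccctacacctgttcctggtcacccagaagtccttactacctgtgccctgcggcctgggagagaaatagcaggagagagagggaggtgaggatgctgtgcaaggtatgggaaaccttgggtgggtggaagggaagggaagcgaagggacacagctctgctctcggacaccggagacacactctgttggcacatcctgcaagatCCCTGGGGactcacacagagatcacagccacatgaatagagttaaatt
Cr2: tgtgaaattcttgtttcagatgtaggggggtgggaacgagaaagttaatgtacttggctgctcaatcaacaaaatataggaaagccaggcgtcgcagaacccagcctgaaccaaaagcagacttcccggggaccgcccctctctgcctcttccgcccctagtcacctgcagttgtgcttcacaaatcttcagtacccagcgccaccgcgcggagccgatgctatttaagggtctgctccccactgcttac
Both strands were searched for the letters CCCNNGGG (the core bound by EBF factors), ATGCAAAT (the octamer bound by POU factors), GCGTGAC (a PAX5 core) and GAGGAA (a PU.1 core). The Cd79a window held 1 PU.1 match, which starts 140 bases before the transcription start and reads TTCCTC on the strand shown. The Cd22 window held 1 EBF match starting 48 bases before the start, and the Cr2 window held none of the 4 motifs. Of the windows not shown, those of Pax5 and Fcer2a held none, and 1 of the 2 of Ebf1 held a PU.1 match starting 130 bases before the start. No match overlapped another. Of 32851 mouse promoters of the same length, 11.8% held the EBF letters, 1.6% the octamer, 1.78% the PAX5 letters and 23.3% the PU.1 letters, so such matches are common for the EBF and PU.1 letters and describe the sequence only.

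Levels were given as FPKM, the number of fragments of a gene after scaling for its length and for the size of the library, which and can be compared between genes. All 6 samples carried the transcripts of CD8+ T cells at high level. Cd8a, which encodes the alpha chain of the CD8 co-receptor, was at 229.51, 239.27 and 225.80 FPKM in MWA+PBS and at 363.14, 358.98 and 377.07 FPKM in MWA+2DG. Summed FPKM per sample ran from 291803 to 313257, and 12198 to 12515 genes per sample reached 1 FPKM. Read depth is unknown, because FPKM holds no counts.

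All 9 members had their lowest MWA+2DG sample above their highest MWA+PBS sample. The largest differences in FPKM were those of Cd79a and Cd79b, and the lowest levels in MWA+2DG were those of Ebf1. Changes were tested with limma on log2(FPKM + 1) over the 12444 genes with a mean of at least 1 FPKM over the 6 samples, and a gene was called at a Benjamini-Hochberg adjusted p under 0.05. On that scale a fold change of a gene with low FPKM is understated. Of all tested genes 22.3% were called higher in MWA+2DG and 17.1% lower, and 30.2% had groups that did not overlap with MWA+2DG higher, against 21.9% with MWA+2DG lower. By the study's rule of an unadjusted p under 0.05 and a log2 change beyond 0.25, these shares were 21.6% higher and 16.6% lower. The 8 members that were tested were called higher by both rules. Ms4a1, Pax5, Fcer2a and Cr2 were under 1 FPKM in every MWA+PBS sample and passed the filter only through MWA+2DG, so these 4 had to differ, and Ebf1 did not pass it. In bulk RNA, more or fewer B cells and more or less of a transcript per cell cannot be told apart.

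**Figure D1:**
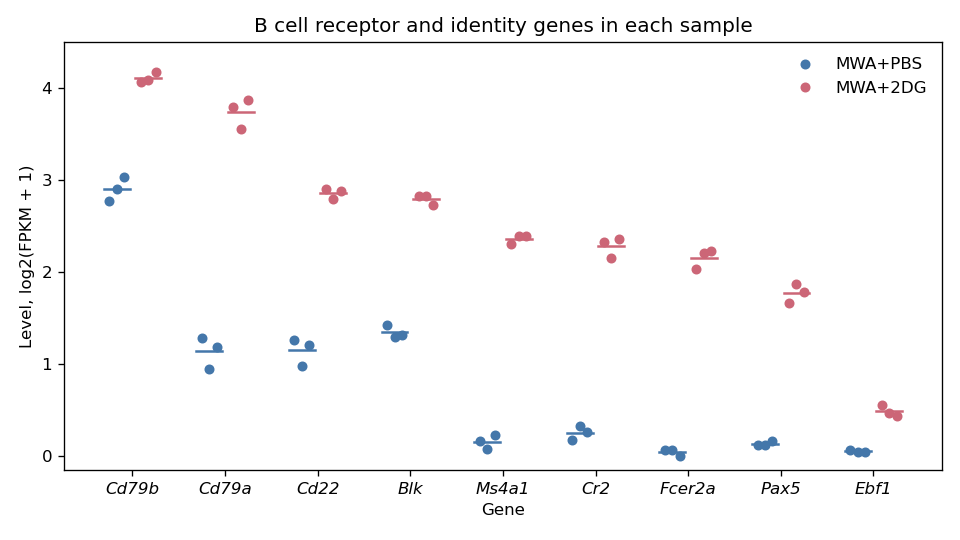
Level of each of the 9 genes in each sample, as log2(FPKM + 1). Points are samples, with 3 in MWA+PBS and 3 in MWA+2DG, and the line is the group mean. The groups overlap for none of the 9 genes.

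The signalling chains of the receptor stood at different levels before the comparison. Cd79a (ENSMUSG00000003379), the alpha chain, was at 1.44, 0.93 and 1.28 FPKM in MWA+PBS and at 12.88, 10.82 and 13.68 FPKM in MWA+2DG. The lowest MWA+2DG sample was far above the highest MWA+PBS sample. The mean rose from 1.22 ± 0.261 to 12.5 ± 1.48 FPKM (SD, n = 3), a 10.2-fold difference, with a log2 fold change of 2.60 ± 0.12 (SE) and a limma adjusted p of 5.31e-06. Only 18 of the 12444 tested genes, Cd79a included, had a log2 fold change as high as that of Cd79a.

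Cd79b (ENSMUSG00000040592), the beta chain that pairs with Cd79a, was at 5.84, 6.52 and 7.22 FPKM in MWA+PBS and at 15.84, 16.03 and 17.14 FPKM in MWA+2DG. It had the highest level of the 9 genes in each of the 6 samples, and its groups did not overlap. Its mean rose 2.50-fold, from 6.53 ± 0.69 to 16.3 ± 0.702 FPKM (SD, n = 3), with a log2 fold change of 1.21 ± 0.08 (SE) and a limma adjusted p of 3.12e-05. This was the smallest log2 fold change of the tested members. Cd79a stood at 1.22 FPKM against 6.53 FPKM for Cd79b in MWA+PBS, and at 12.5 against 16.3 FPKM in MWA+2DG, so the pair was closer in level in MWA+2DG. The log2 ratio of Cd79b to Cd79a went from 1.77 ± 0.248 to 0.37 ± 0.136 (SD, n = 3), a change of -1.40 with an exact permutation p of 0.1, the smallest that 3 samples against 3 allow. A ratio to Cd79a was lower in MWA+2DG with no overlap for 99.7% of all tested genes, which follows from the size of the Cd79a change.

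Blk (ENSMUSG00000014453), a Src family kinase that phosphorylates the Cd79a and Cd79b tails, was at 1.68, 1.46 and 1.5 FPKM in MWA+PBS and at 6.09, 6.10 and 5.63 FPKM in MWA+2DG. The samples of each group lay close together and the groups were well apart. The mean rose 3.84-fold, with a log2 fold change of 1.45 ± 0.07 (SE) and a limma adjusted p of 8.87e-06. Cd22 (ENSMUSG00000030577), which binds sialic acid and recruits phosphatases to the receptor, was at 1.41, 0.98 and 1.31 FPKM in MWA+PBS and at 6.51, 5.94 and 6.41 FPKM in MWA+2DG. Its MWA+2DG samples were all higher, by 5.10-fold in the means and 1.71 ± 0.09 (SE) on the log2 scale, with a limma adjusted p of 1.3e-05.

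Cr2 (ENSMUSG00000026616), the complement receptor CD21 that is also made by follicular dendritic cells, was at 0.13, 0.26 and 0.20 FPKM in MWA+PBS and at 4.02, 3.44 and 4.15 FPKM in MWA+2DG. The MWA+2DG samples of Cr2 were all far above those of MWA+PBS, with a log2 fold change of 2.02 ± 0.10 (SE). Fcer2a (ENSMUSG00000005540), the low affinity IgE receptor, was listed at 0.05, 0.05 and 0 FPKM in MWA+PBS and at 3.09, 3.64 and 3.71 FPKM in MWA+2DG. The 3 MWA+PBS samples were at or near 0 and each MWA+2DG sample was above 3 FPKM, with a log2 fold change of 2.11 ± 0.10 (SE). Ms4a1 (ENSMUSG00000024673), a four-span membrane protein that is the target of CD20 antibodies, was at 0.12, 0.06 and 0.17 FPKM in MWA+PBS and at 3.97, 4.25 and 4.24 FPKM in MWA+2DG. No MWA+PBS sample came near the MWA+2DG samples. The log2 fold change of Ms4a1 was 2.21 ± 0.09 (SE). Because the filter fixed the direction of Cr2, Fcer2a and Ms4a1, their p is given from the fit with no filter on low values, in which 9.03% of 28458 genes were called higher. There the limma adjusted p was 0.000171 for Cr2, 0.000124 for Fcer2a and 8.82e-05 for Ms4a1.

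Both transcription factors were the lowest members in MWA+2DG. Pax5 (ENSMUSG00000014030), which holds B cells to their lineage, was at 0.09, 0.09 and 0.12 FPKM in MWA+PBS and at 2.17, 2.67 and 2.46 FPKM in MWA+2DG. The groups did not overlap, and the log2 fold change was 1.64 ± 0.10 (SE), with a limma adjusted p of 0.000262 in the fit with no filter. Ebf1 (ENSMUSG00000057098), which acts with Pax5 and is also made by stromal and fat cells, was at 0.05, 0.03 and 0.03 FPKM in MWA+PBS and at 0.47, 0.39 and 0.35 FPKM in MWA+2DG. No sample reached 1 FPKM, so Ebf1 was not in the main test. The exact permutation test, two-sided, gave p = 0.1, the smallest that the design allows. In the fit with no filter, the log2 fold change of Ebf1 was 0.44 with a limma adjusted p of 0.00178.

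Within MWA+PBS, the order of the mean levels was Cd79b, Blk, Cd22, Cd79a, Cr2, Ms4a1, Pax5, Ebf1 and Fcer2a. The ranges of Cd22 and Cd79a overlapped there, as did those of Cr2 and Ms4a1, of Ms4a1 and Pax5, and of Ebf1 and Fcer2a. Within MWA+2DG the order was Cd79b, Cd79a, Cd22, Blk, Ms4a1, Cr2, Fcer2a, Pax5 and Ebf1. The ranges of Cd22 and Blk overlapped there, as did those of Ms4a1 and Cr2, and of Cr2 and Fcer2a. Cd79a stood below Blk in MWA+PBS and above Blk in MWA+2DG, with no overlap of their ranges in either group. In MWA+2DG, the FPKM of Cd22 was 46.9% to 54.9% of that of Cd79a in the same sample, that of Blk 41.2% to 56.4% and that of Ebf1 2.6% to 3.6%.

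The 9 members together summed to 10.81, 10.38 and 11.83 FPKM in MWA+PBS and to 55.04, 53.28 and 57.77 FPKM in MWA+2DG. The 10 T lineage genes of the marker lists, which include Cd3e and Cd8a, were also called higher, 10 of 10, with a median log2 fold change of 0.50. Their sum ran from 1222 to 1273 FPKM in MWA+PBS and from 1735 to 1840 FPKM in MWA+2DG. Relative to that sum, the members came to 0.849%, 0.826% and 0.968% in MWA+PBS and to 2.99%, 3.07% and 3.17% in MWA+2DG. That sum includes Ms4a1, Pax5, Fcer2a and Cr2, which passed the filter only through MWA+2DG, so these shares are given as a description. When each sample was scaled to its T lineage genes, the median log2 fold change of all tested genes moved by -0.49 and the share of called genes that were higher went from 56.5% to 3.74%, while Cd79a, Cd79b, Cd22 and Blk were still called higher. For Cd79a, Cd79b, Cd22 and Blk, whose means reached 1 FPKM in both groups, each of the 62 values computed under the alternatives tried was above 0 and called, with a highest adjusted p of 0.000364. The other 5 members gave 61 such values. In the settings that kept the filter of 1 FPKM, they could pass it only through MWA+2DG, which fixed their direction. For these members only the fit with no filter is read.

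Transcripts of cells other than T cells and B cells moved too. Neutrophil markers summed to at most 88.15 FPKM in MWA+PBS and to 1517 to 1691 FPKM in MWA+2DG, and 8 of 9 were called higher, with Ngp, a granule protein, at 26.8 and 614 FPKM. Macrophage markers went the other way. Their sum was 577 to 631 FPKM in MWA+PBS and 89.1 to 96.3 FPKM in MWA+2DG, and 10 of 10 were called lower. C1qa, a chain of complement C1q, fell from 130 to 20.3 FPKM. Erythroid markers were called lower in 4 of 4, with sums of 185 to 218 and 41.2 to 55.0 FPKM. Of the markers of follicular dendritic cells and stroma, which can make Cr2, only 2 of 8 listed passed the filter and neither was called, with sums of 8.29 to 10.8 and 9.65 to 10.2 FPKM. Clu of this list was called higher when MWA+PBS replicate 1 was left out (log2 fold change 0.42, adjusted p = 0.0353). Dendritic cell markers were called lower in 2 of 2 tested and summed to 7.81 to 9.14 and 3.01 to 3.69 FPKM. Plasmacytoid dendritic cell markers, 2 of 4 tested called lower, summed to 32.3 to 41.4 and 32.0 to 36.4 FPKM. Natural killer cell markers summed to 30.4 to 32.3 and 50.6 to 54.3 FPKM, where Eomes, which memory CD8+ T cells also express, was called higher (22.8 and 45.7 FPKM) and Ncr1 was called lower (6.54 and 4.92 FPKM). Klrb1c (0.97 and 0.67 FPKM) and Klre1 (1.02 and 0.823 FPKM) were not tested. Ncr1, Klrb1c and Klre1, and the markers that passed the filter through 1 group alone, are named after their values were seen. Of gamma delta T cell genes 4 of 5 tested were called higher, with sums of 19.6 to 21.6 and 30.3 to 33.5 FPKM. Retnlg and Cxcr2 of the neutrophil list passed the filter through MWA+2DG alone, and Flt3 of the dendritic cell list, Cox6a2 of the plasmacytoid list and Alas2 and Klf1 of the erythroid list through MWA+PBS alone, so their calls could come out in 1 direction only. No marker of any list was at 0 in all 6 samples, and the part of these cells in the levels of the members was not tested.

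Other genes of B cell identity were more often called higher than lower. Of 21 such genes, 18 were tested, 14 were called higher and 1 was called lower, and the median log2 fold change was 0.75 against 0.05 over all tested genes. After T lineage scaling the list median was 0.26, against -0.45 over all tested genes. Fcrla, Fcrl1, Fcmr, Spib and Siglecg were under 1 FPKM in the MWA+PBS mean and passed the filter through MWA+2DG alone. Their calls could therefore come out higher only, and they are part of the counts and the medians above. Fcmr, a receptor for the Fc part of IgM, was at 0.24, 0.41 and 0.33 FPKM in MWA+PBS and at 10.46, 8.40 and 9.01 FPKM in MWA+2DG (log2 fold change 2.95). Its groups were far apart. Among the genes with the highest levels of this list, Cd37, a tetraspanin, was at 30.4 and 47.7 FPKM in the means with a log2 fold change of 0.63, and it was no longer called after T lineage scaling (adjusted p = 0.0617). Btla, an inhibitory receptor of B and T cells, rose from 10.6 to 19.2 FPKM.

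Cd24a did not pass the test, with means of 11.7 and 11.4 FPKM and a log2 fold change of -0.03. Ly6d (log2 fold change 0.23, adjusted p = 0.395) and Blnk, the adaptor between Syk and phospholipase C (log2 fold change -0.20, adjusted p = 0.118), were also not called, and both are named after their values were seen. Bank1, a B cell scaffold protein, was at 4.38, 4.89 and 4.79 FPKM in MWA+PBS and at 2.49, 2.36 and 2.42 FPKM in MWA+2DG. Bank1 was the gene of this list called lower, with a log2 fold change of -0.73. The difference between members and other identity genes was not tested.

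**Figure D2:**
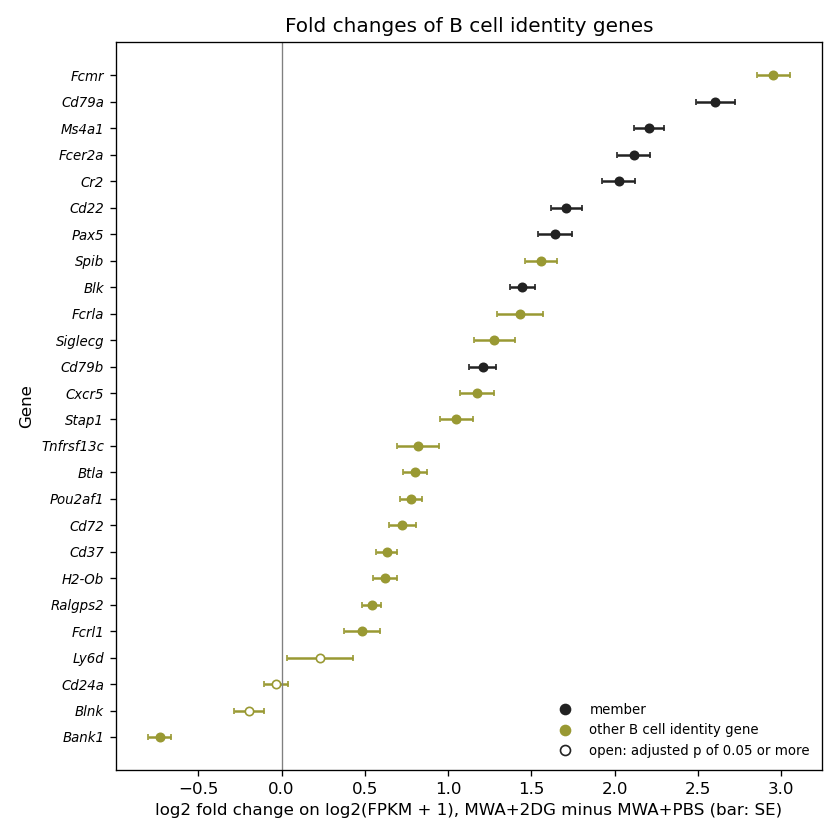
log2 fold change of MWA+2DG minus MWA+PBS on the log2(FPKM + 1) scale for the 8 tested members and the 18 tested genes of the other B cell identity list. Bars are the limma SE, and open circles are genes with an adjusted p of 0.05 or more. Fcmr and Cd79a are at the top and Bank1 is at the bottom with -0.73.

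The transcription factors of the B lineage did not move together. Of 16 such genes other than Pax5 and Ebf1, 14 were tested, 6 were called higher and 3 lower, and the median log2 fold change was 0.14, which became -0.35 after T lineage scaling and 0.05 at a minimum of 5 FPKM. Spib, called higher, and Bcl11a, called lower, each passed the filter through 1 group alone and so had only that direction open to them, and Bcl11a is named after its values were seen. Spib, an Ets factor of B cells and plasmacytoid dendritic cells, was at 0.65, 0.59 and 0.75 FPKM in MWA+PBS and at 3.71, 4.39 and 3.63 FPKM in MWA+2DG (log2 fold change 1.56). Irf8, a factor of B cells and myeloid cells, was at 12.73, 11.62 and 11.89 FPKM in MWA+PBS and at 5.02, 5.23 and 5.03 FPKM in MWA+2DG. Its log2 fold change was -1.10, and that of Spi1, the PU.1 gene and a second factor that myeloid cells share, was -0.95, named after its values were seen. Ikzf1, a factor of all lymphocytes, did not pass the test, with 125 and 133 FPKM. Foxo1, which B and T cells share, had a log2 fold change of 0.47 and was called higher, but stood at -0.02 after T lineage scaling.

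The kinases and adaptors that act after the receptor were more often called lower than higher. Of 18 genes of B cell receptor signalling, 17 were tested, 2 were called higher and 9 lower, and the median log2 fold change was -0.47, or -0.97 after T lineage scaling. The count called higher was 1 without MWA+PBS replicate 1 or without any 1 of the MWA+2DG replicates 4, 5 and 6. Cd81, a tetraspanin of the Cr2 co-receptor complex, was at 19.13, 14.25 and 18.18 FPKM in MWA+PBS and at 3.84, 4.04 and 4.10 FPKM in MWA+2DG. Cd81 fell by 1.85 on the log2 scale. Cr2 had a log2 fold change of 2.02 with its direction fixed by the filter, so no change of the complex is read from the 2 genes. Malt1, a protease that relays the receptor signal to NF-kB, rose from 8.68 to 12.4 FPKM, with a log2 fold change of 0.47 that was -0.03 after T lineage scaling. The genes of the kinases Lyn, Syk and Btk and of Plcg2, all of which macrophages also express, are named after their values were seen. Their log2 fold changes were -1.45 for Lyn, -0.98 for Syk, -1.21 for Btk and -1.08 for Plcg2, and each was called lower. The macrophage markers, called lower in 10 of 10, moved in the same direction as these 4 genes and Cd81, and their part was not tested. Pik3cd, a lymphocyte PI3 kinase subunit with means of 114 and 121 FPKM, Vav1 with 56.0 and 54.4 FPKM and Grb2 with 48.9 and 42.8 FPKM were not called. Grb2 was called lower when MWA+PBS replicate 2 was left out (limma adjusted p = 0.0237). It was also called lower under median ratio scaling (0.0487), with array weights (0.0106) and after T lineage scaling (0.000217).

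Inhibitors of the receptor other than Cd22 were split, with 3 called higher and 3 lower of 9 tested and a median log2 fold change of -0.10 (-0.59 after T lineage scaling and 0.038 at a minimum of 5 FPKM), where Siglecg passed the filter through MWA+2DG alone. The count called lower was 1 without MWA+PBS replicate 1 or 2 or MWA+2DG replicate 4 or 5, and 2 without either of the others. Siglecg, a sialic acid lectin of the same family as Cd22, was at 0.38, 0.46 and 0.49 FPKM in MWA+PBS and at 2.53, 2.02 and 3.00 FPKM in MWA+2DG (log2 fold change 1.28). Pirb, an inhibitory receptor of B cells and myeloid cells, fell by 1.48 on the log2 scale. Cd5, which most T cells carry, had a log2 fold change of 0.60, which was 0.11 and not called after T lineage scaling. Ptpn6, the phosphatase that Cd22 recruits, was not called, with means of 107 and 96.7 FPKM, and neither was Inpp5d, with 29.8 and 27.8 FPKM. Of the receptors and adaptors of the BAFF and CD40 pathway, 2 of 5 tested were called higher and none lower, with a median log2 fold change of 0.05 that became -0.44 after T lineage scaling. That median was 0.0036 under median ratio scaling, 0.021 without MWA+PBS replicate 2 and 0.0285 without MWA+2DG replicate 5. Tnfrsf13c, the BAFF receptor, rose from 1.23 to 2.91 FPKM, with a log2 fold change of 0.82. Tnfrsf13b, which binds BAFF and APRIL, had a log2 fold change of 0.30 that was -0.19 after T lineage scaling, and it was not called without MWA+2DG replicate 4 (adjusted p = 0.0544) or 6 (0.0566).

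The immunoglobulin constant genes, which encode the constant regions of the antibody chains in the receptor, separated into 2 directions. Of 12 genes, 11 were tested, 3 were called higher and 7 lower, with a median log2 fold change of -0.52. That median was -0.23 at a minimum of 5 FPKM and -1.01 after T lineage scaling. Ighd, the heavy chain of IgD on mature naive B cells, was at 1.76, 1.75 and 1.63 FPKM in MWA+PBS and at 17.96, 17.90 and 17.93 FPKM in MWA+2DG. This was a 10.5-fold difference of the means and a log2 fold change of 2.80, close in size to those of Cd79a. Ighm, the heavy chain of IgM, was at 912.70, 890.27 and 828.57 FPKM in MWA+PBS and at 399.12, 371.67 and 410.69 FPKM in MWA+2DG, and fell by 1.15 on the log2 scale. Igkc, the kappa light chain, fell by 1.27, from 858 to 356 FPKM. Iglc1, a lambda light chain gene whose reads may be shared with the near-identical Iglc genes, fell by 0.96. With the same doubt, and named after their values were seen, Iglc3 was called higher, with means of 3.21 and 7.88 FPKM and a log2 fold change of 1.08, and Iglc2 was not called (log2 fold change -0.06).

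Cd79a, which carries the immunoglobulin to the surface, and Ighm thus moved in opposite directions. The FPKM of Cd79a was 0.158%, 0.104% and 0.154% of that of Ighm in the MWA+PBS samples and 3.23%, 2.91% and 3.33% in the MWA+2DG samples. The FPKM of Ighd was 0.193%, 0.197% and 0.197% of that of Ighm in MWA+PBS and 4.5%, 4.82% and 4.37% in MWA+2DG. Against Cd8a, Cd79a was at 0.627%, 0.389% and 0.567% in MWA+PBS and at 3.55%, 3.01% and 3.63% in MWA+2DG. The groups were apart in these ratios, but with Cd79a as the reference 99.7% of all tested genes also had groups that did not overlap, so nothing particular to Ighm or Cd8a is read from the Cd79a ratios. The Ighd ratio has no such background value and is given as a description.

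**Figure D3:**
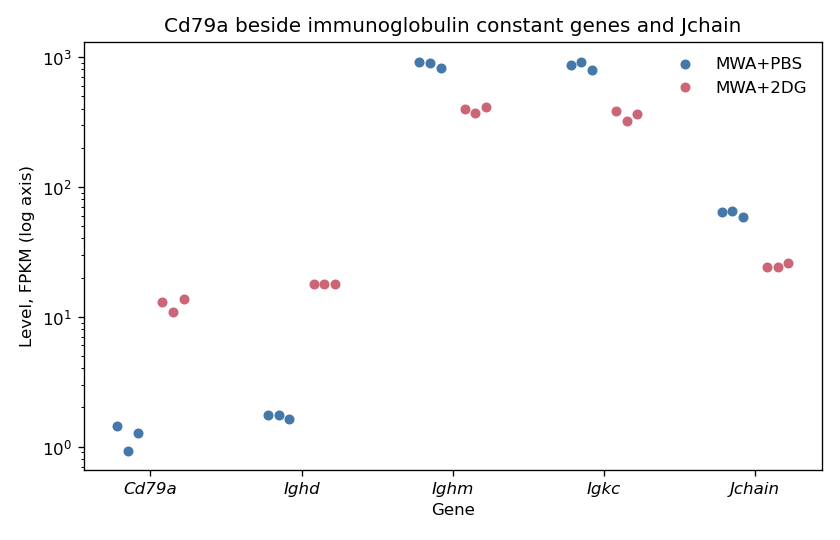
FPKM of Cd79a, 3 immunoglobulin constant genes and Jchain in each of the 6 samples, on a log axis. Cd79a and Ighd are near 1 to 2 FPKM in MWA+PBS and between 10.82 and 17.96 FPKM in MWA+2DG, whereas Ighm, Igkc and Jchain are lower in MWA+2DG.

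Genes of antibody-secreting cells were also more often called lower than higher. Of 10 plasma cell genes, 6 were tested, 1 was called higher and 3 lower, with a median log2 fold change of -0.16. That median was -0.53 at a minimum of 5 FPKM and -0.65 after T lineage scaling. Jchain, which joins IgM and IgA into polymers, was at 63.52, 65.00 and 58.03 FPKM in MWA+PBS and at 24.24, 23.91 and 25.98 FPKM in MWA+2DG, where its mean was 0.397 times that of MWA+PBS. Xbp1 and Txndc5, which serve the secretory apparatus, fell by 0.53 and 0.37. Irf4, a factor of plasma cells and activated lymphocytes, had a log2 fold change of 0.40 that was -0.10 after T lineage scaling.

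Genes of other B cell stages gave few calls. Only 2 of 7 listed B cell precursor genes passed the filter, and both were called lower, although Dntt passed it through MWA+PBS alone and so could only come out lower. Dntt, the terminal transferase of lymphocyte precursors, was at 4.08, 4.46 and 4.41 FPKM in MWA+PBS and at 0.85, 0.55 and 0.62 FPKM in MWA+2DG, and Sox4 fell by 1.18 on the log2 scale. Of 7 germinal centre genes only Bcl6 was tested, with a log2 fold change of 0.20 and an adjusted p of 0.108. Its call depended on the setting. Bcl6 was called lower after T lineage scaling (log2 fold change -0.30, limma adjusted p = 0.0199) and higher with array weights (0.20, limma adjusted p = 0.0418). Of the 5 marginal zone and B-1 genes tested none was called higher and Notch2 was called lower, with a log2 fold change of -0.37 and an adjusted p of 0.0444. Notch2 was no longer called without MWA+PBS replicate 1 (adjusted p = 0.112) or 3 (0.111), or without MWA+2DG replicate 4 (0.111) or 6 (0.127). Dtx1, Cd9 and Cd1d1 of the same list were not called, with log2 fold changes of -0.14, 0.15 and -0.03, although Dtx1 was called lower without MWA+PBS replicate 2 (adjusted p = 0.00798).

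Of the MHC class II genes, which B cells share with dendritic cells and macrophages, 3 of 6 tested were called higher and none lower, with a median log2 fold change of 0.30 that became -0.19 after T lineage scaling and 0.19 at a minimum of 5 FPKM. H2-DMb2, a chaperone chain for peptide loading, was at 2.27, 3.19 and 2.52 FPKM in MWA+PBS and at 9.90, 6.89 and 9.45 FPKM in MWA+2DG (log2 fold change 1.41). Cd74, the invariant chain and the most abundant of the list, was not called, with means of 76.1 and 71.6 FPKM. H2-Eb1 had a log2 fold change of 0.41 that was -0.08 after T lineage scaling, and H2-Ab1 was not called (log2 fold change 0.19) except when MWA+2DG replicate 5 was left out (adjusted p = 0.0365).

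**Figure D4:**
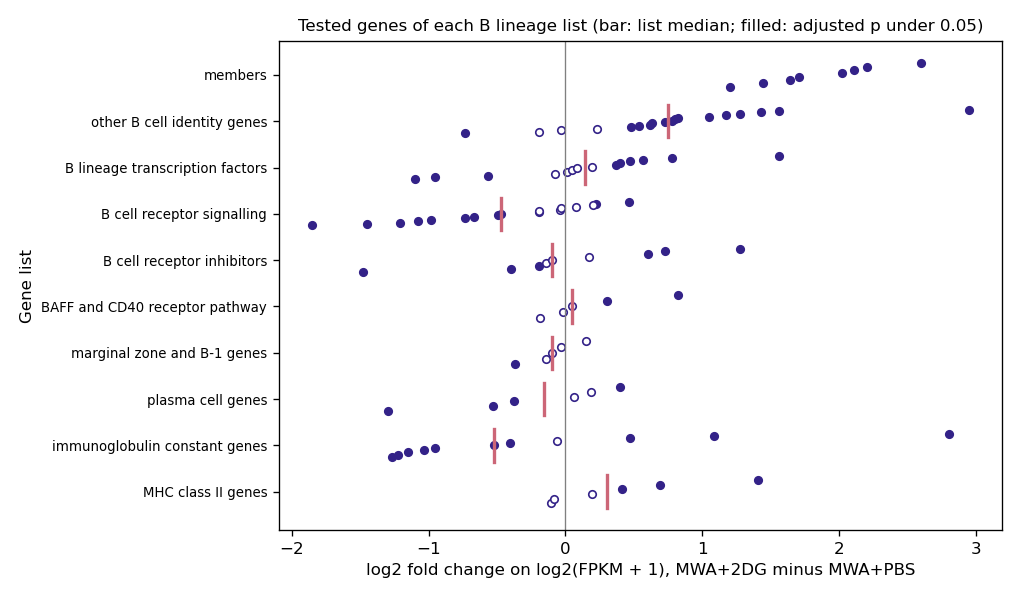
log2 fold change of every tested gene of the members and of the B lineage lists with at least 5 tested genes, on the log2(FPKM + 1) scale. Points are genes, filled where the adjusted p is under 0.05, and the bar is the list median, which is 0.75 for the other B cell identity genes, -0.47 for B cell receptor signalling and -0.52 for immunoglobulin constant genes.

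The genes most like the members over the 6 samples belonged, with 1 exception, to no B lineage list. Likeness was the Euclidean distance between a gene's log2(FPKM + 1), centred on its own mean, and the mean centred profile of the 8 members that passed the filter. Because the samples of a group lay close together, this distance mostly ranks genes by the size of their change. The log2 fold changes of the 10 nearest ran from 1.52 to 2.04. Ms4a1, Pax5, Fcer2a and Cr2 in the profile passed the filter through MWA+2DG alone. The same holds for Mrgpra2b, Scd1, Cxcr2, Spib and Wfdc21 among the nearest. No shared cell of origin is read from the distances. The nearest were Mrgpra2b (0.182), Scd1 (0.254), 5830411N06Rik (0.33), Cxcr2 (0.359), Gm43197 (0.363), Fpr2 (0.38), Anxa1 (0.393), Spib (0.436), Gm6545 (0.458) and Wfdc21 (0.492). Spib was the gene among these 10 that belonged to a B lineage list, and Cxcr2, a chemokine receptor of neutrophils, belonged to the neutrophil list. The marker lists are short, so a gene outside them may still be made by neutrophils or by another listed cell type. Which cells made the other nearest genes was not tested. The members themselves lay 0.262 (Cd22) to 0.94 (Cd79a) from their own mean profile. Scd1, a fatty acid desaturase, was at 0.58, 0.72 and 0.57 FPKM in MWA+PBS and at 4.48, 4.54 and 4.25 FPKM in MWA+2DG.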

How the data were processed

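RNA was sequenced from splenic CD8+ T cells of 3 MWA+PBS and 3 MWA+2DG samples, grouped by their labels. Poly(A) RNA was made into libraries with dUTP marking of the second strand and with molecular identifiers in the adapters. The sources used here do not say whether either entered the counting. The authors deposited FPKM values per gene, which their methods derive from reads checked with fastp, mapped with HISAT2, assembled with StringTie and quantified with StringTie and ballgown. The submitters' processing notes name cutadapt 1.9, HISAT2 2.0.4, UMI-tools, StringTie 1.3.4d and the build mm9, with no role or order. No annotation release is named in those notes. Because FPKM is scaled to the library, a few abundant transcripts that gain share push the values of other genes down.

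Symbols were found in a GENCODE mouse annotation for 28689 of 28773 gene identifiers, which left 84 without one. A scan of FPKM times transcript length for a step worth 1 read gave a resonance of 0.081 to 0.128, against 0.113 to 0.13 after jitter, so whole reads were not recovered and depth is unknown. Genes with a mean FPKM of at least 1 over the 6 samples were tested on log2(FPKM + 1) with limma 3.58.1 in R 4.3.3 (eBayes with a trend, two-sided), with Benjamini-Hochberg adjustment over all 12444 genes and a threshold of 0.05. Single values were tested with exact two-sided permutation over the 6 samples. On simulated data with 200 of 12444 genes changed, this comparison recovered 85.5% of the changed genes and called 0.0898% of the others. The simulation had normal noise, no batch and few changed genes, whereas 4907 genes were called in the data. It checks that the test runs properly and does not measure how reliable the calls in these data are. No 2 samples held the same values, and log2 levels correlated at 0.984 to 0.989 within groups and at 0.9345 to 0.9434 between groups.

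The members, the gene lists and the tests were chosen with earlier results of these data known. A few genes, taken out of the lists that held them, are not reported here and are in none of their counts. The 11 genes that stand in more than 1 list were counted in each. Beside all 9 members, the named genes were, from each B lineage list, up to 3 tested genes with the highest mean FPKM and those with the highest and lowest log2 fold change, from each marker list the gene with the highest mean FPKM, and the 10 genes nearest to the members. Promoter windows came from a RefSeq table on GRCm38.p6 and no coordinates were converted. The alternatives were other filters, a pseudocount of 0.1, quantile, median ratio, restricted-total and T lineage scaling, eBayes without a trend, array weights, the leaving out of each sample, and the study's rule (unadjusted p under 0.05 and a log2 difference of more than 0.25). Figures were drawn with matplotlib 3.10.9.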

Additional observations from a re-analysis of the deposited data

How the results depend on the processing

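No paired analysis was possible because MWA+PBS and MWA+2DG have no replicate number in common (1 to 3 against 4 to 6). All 62 values computed under the alternatives for Cd79a, Cd79b, Cd22 and Blk were above 0 and called. The 61 for the other 5 members were too, but where the filter of 1 FPKM was kept it fixed their direction, so only the fit with no filter is read for them. Of 961 alternative values for 61 other named genes, 912 kept direction and call. A minimum of 5 FPKM left fewer genes to test, with 2951 of all genes and 2 members called; other identity genes then had 6 higher and 0 lower, transcription factors 3 higher, inhibitors 1 lower and a median of 0.038, the BAFF and CD40 pathway 1 higher, plasma cell genes 0 higher and immunoglobulin constant genes 4 lower. With a minimum of 0.1 FPKM or none, Ebf1 was tested and called (log2 fold change 0.44), transcription factors had 5 lower and the BAFF and CD40 pathway 1 lower, and with none inhibitors had 1 lower and marginal zone and B-1 genes 0 lower. A pseudocount of 0.1 moved the log2 change in the ratio to Cd79a to -1.95 for Cd79b, -1.39 for Ebf1, -0.994 for Cd22 and -1.39 for Blk, and reversed it to 1.06 for Ms4a1, 0.395 for Pax5, 1.5 for Fcer2a and 0.495 for Cr2, all with low FPKM in MWA+PBS, which a smaller pseudocount weighs more.

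T lineage scaling shifts every gene by the same amount and called 9752 genes. The genes called higher and lower were then 0 and 16 in receptor signalling, 2 and 8 in transcription factors (median -0.35), 1 and 4 in the BAFF and CD40 pathway (median -0.44), 0 and 5 in plasma cell genes, and 1 and 3 in MHC class II genes (median -0.19). Those called lower were 3 in other identity genes, 6 in inhibitors and 5 in marginal zone and B-1 genes. It reversed the log2 fold changes of Bcl6 (-0.30), Bst2 (-0.25), Cd9 (-0.34), Clu (-0.19), Foxo1 (-0.023), H2-Ab1 (-0.30), H2-Eb1 (-0.08), Ikzf1 (-0.41), Ikzf3 (-0.12), Irf4 (-0.10), Malt1 (-0.0287), Pik3cd (-0.42), Tnfrsf13b (-0.19) and Traf3 (-0.44). Median ratio scaling made 48.6% of called genes higher. The receptor signalling genes called higher were 1 under that scaling, without a trend, by the study's rule and under scaling to a restricted total, and 1 to 2 when a sample was left out. Array weights gave 1 lower in the BAFF and CD40 pathway, 2 lower in marginal zone and B-1 genes, 2 higher in plasma cell genes and 0.0077 for Cd24a. Without a trend, other identity genes had 2 lower and marginal zone and B-1 genes 0 lower, the latter also under scaling to the restricted total, which leaves out genes for ribosomal proteins, immunoglobulin, haemoglobin and mitochondrial transcripts. The cause of these last moves was not tested. Leaving out each sample gave 3669 to 5152 called genes and 7 to 8 members called, with 7 without MWA+2DG replicate 5, where Pax5 fell under the filter. The counts called lower ran from 1 to 2 in inhibitors, 0 to 1 in the BAFF and CD40 pathway and 0 to 2 in marginal zone and B-1 genes, the BAFF and CD40 count called higher from 1 to 2, and the log2 fold change of Cd24a from -0.0829 to 0.0204. Read depth is unknown, so differences among values near 0, such as those of Ebf1 and Fcer2a in MWA+PBS, could not be judged.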
